A study of Rattus norvegicus with 12 samples.

Results

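Steroid hormone receptors of uterine smooth muscle were followed on rat Clariom S arrays in a rapamycin-resistant line and its parent. The genes were chosen by symbol: the estrogen receptor genes Esr1 and Esr2, the progesterone receptor gene Pgr, the glucocorticoid receptor gene Nr3c1, the mineralocorticoid receptor gene Nr3c2, the oxytocin receptor gene Oxtr, and Greb1, a target gene of estrogen receptor α. The annotation of the array gave 1 probe set each to 6 of these 7 genes, of 23188 probe sets in all and 15049 with 1 gene symbol. No probe set carried the symbol Greb1, and this gene was not analysed here.

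The 4 groups were ELT3-245 cells treated with rapamycin at 20 nM for 24 hours, ELT3-245 cells in the vehicle DMSO, ELT3 cells treated with rapamycin in the same way, and ELT3 cells in DMSO, with 3 replicate arrays in each group. The labels and the study state the dose as 20 nM, the value used here, but the stock and volume that the labels also give would amount to a micromolar dose. ELT3 is a Tsc2-null line started from an Eker rat's uterine leiomyoma, so both lines lack the tumor suppressor tuberin. ELT3-245 was grown from 1 ELT3 xenograft tumor, in a female ovariectomized CB17/SCID mouse, that had not responded to rapamycin. ELT3-245 is 1 resistant line, and its cells had passed through a host that the ELT3 cells on the arrays had not. Both lines were grown with fetal bovine serum, and the sources used here do not say whether its steroids had been stripped.

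Steroid receptors are transcription factors that chaperones of the Hsp90 family hold ready for their hormone, and that bind DNA and recruit coactivators or corepressors once the hormone is bound. In the myometrium, estrogen acting through Esr1 is known to raise Pgr and Oxtr, and progesterone acting through Pgr is known to hold back contraction until labor. Leiomyomas, the benign tumors of this muscle, depend on both hormones. Rapamycin inhibits mTORC1, the kinase complex that tuberin restrains.

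The values are log2 signals, on which a difference of 1 is a doubling, and the array medians lay between 6.69 and 6.82. Arrays of 1 group correlated at 0.9928 to 0.9966 across probe sets, and outlying arrays were not searched for. The mean correlation with the other arrays of a group was lowest for replicate 3 of ELT3 in rapamycin (0.9932). Groups were compared with limma in 1 fit over all 12 arrays, and a call required an adjusted p below 0.05, by Benjamini-Hochberg over every probe set, together with a difference of at least 1.5-fold. The limma p-values rest only on the spread between replicate samples within groups, pooled over the 4 groups and moderated across probe sets. They do not measure a spread between independently derived lines. In RNA from whole cultures, fewer expressing cells and less RNA per cell cannot be told apart. The smooth muscle genes Acta2, Des, Tagln and Smtn were bright in all groups, while Myh11, Cnn1 and Myocd, which mark mature smooth muscle, had group means under 7. Of 5 endothelial markers, only Kdr was called higher in ELT3-245, by 6.25 in rapamycin and by 7.22 in DMSO on the log2 scale. Tek was called lower in both treatments (-1.60 and -1.57) and Pecam1 in rapamycin (-0.88), and Cdh5 and Vwf had group means under 5. Of 7 leukocyte markers, Cd3e was called higher in ELT3-245 in rapamycin (6.09) and in DMSO (5.95), and Cd68 in DMSO (1.59). Cd14 was called lower in both treatments (-0.73 in each), and Ptprc and Itgam had group means under 5. Of 7 epithelial markers, Krt8 (-5.54) and Foxa2 (-1.17) were called lower in ELT3-245 in rapamycin. In DMSO Krt8 (-3.75), Krt7 (-1.40), Foxa2 (-1.39) and Cdh1 (-0.61) were called lower. As a scale for the marker counts, 8.86% of all probe sets were called higher in ELT3-245 under rapamycin, and 7.3% under DMSO. Those called lower made up 7.92% under rapamycin and 7.56% under DMSO. For the comparison of treatments, the share called higher was 5.65% in ELT3-245 and 7.47% in ELT3. The share called lower was 4.98% in ELT3-245 and 8.45% in ELT3. Called higher and lower in ELT3-245 in rapamycin were 1 and 4 of 10 smooth muscle genes, 0 and 2 epithelial, 1 and 1 leukocyte and 1 and 2 endothelial markers. In DMSO these counts were 4 and 4, 0 and 4, 2 and 1, and 1 and 1. Between rapamycin and DMSO they were 3 and 0, 1 and 0, 2 and 2, and 0 and 2 in ELT3-245, and 6 and 0, 1 and 0, 1 and 1, and 0 and 1 in ELT3. The smooth muscle median of this response was 0.44 in ELT3-245 and 0.72 in ELT3, the macrophage marker Csf1r had -2.81 and -2.65, and Cd14 had 1.51 in each line. The array means of the endothelial list, Kdr included, ran from 5.92 to 6.08 in ELT3-245 in rapamycin and from 6.33 to 6.44 in ELT3-245 in DMSO. In ELT3 they ran from 5.18 to 5.35 in rapamycin and from 5.27 to 5.48 in DMSO. The part of these markers in the results on steroid receptors was not tested. The Tsc2 probe set read between 9.16 and 10.73 on the 12 arrays, and the sources used here do not say how it lies to the Eker mutation.

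Pgr and Nr3c1 were the 2 receptor genes that differed between the lines. The DNA around their annotated starts is shown because these genes carry the line difference. Each window holds the 250 bases before and the 50 bases after a start in RefSeq's annotation of GRCr8, and the capitals mark the GC box GGGCGG, on either strand, which is known to bind Sp1. The Pgr window lies on chromosome 8 (chr8:14354148-14354447, plus strand), and the windows of Nr3c1 are those of 2 annotated starts on chromosome 18 (chr18:31614170-31614469 and chr18:31613390-31613689, minus strand).
Pgr: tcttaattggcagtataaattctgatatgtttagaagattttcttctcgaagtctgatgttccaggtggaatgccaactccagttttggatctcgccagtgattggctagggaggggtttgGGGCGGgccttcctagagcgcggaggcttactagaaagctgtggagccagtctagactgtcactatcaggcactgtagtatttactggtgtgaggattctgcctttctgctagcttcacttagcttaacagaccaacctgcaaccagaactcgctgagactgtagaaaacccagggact
Nr3c1, chr18:31614170-31614469: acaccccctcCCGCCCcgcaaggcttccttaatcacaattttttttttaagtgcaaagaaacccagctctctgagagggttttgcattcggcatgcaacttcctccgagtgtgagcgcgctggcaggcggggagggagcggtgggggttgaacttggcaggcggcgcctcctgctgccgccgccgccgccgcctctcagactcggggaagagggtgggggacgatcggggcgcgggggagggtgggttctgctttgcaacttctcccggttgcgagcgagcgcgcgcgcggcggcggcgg
Nr3c1, chr18:31613390-31613689: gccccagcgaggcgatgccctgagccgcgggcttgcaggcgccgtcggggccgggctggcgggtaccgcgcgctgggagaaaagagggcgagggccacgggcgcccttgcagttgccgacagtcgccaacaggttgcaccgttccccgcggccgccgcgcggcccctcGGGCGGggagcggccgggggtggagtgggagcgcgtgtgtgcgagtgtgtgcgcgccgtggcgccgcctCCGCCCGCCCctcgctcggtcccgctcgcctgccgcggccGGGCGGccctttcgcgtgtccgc

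The Pgr window held 1 GC box and was 47.7% G and C, below the median of 51.7% over all windows. The upstream Nr3c1 window held 1 GC box and the downstream one held 4, of which 2 overlap. These windows were 66.0% and 79.0% G and C. A GC box was found in 33.1% of all 33469 windows. RefSeq windows were listed for 5 of the 7 genes, 6 windows in all. The full estrogen response element, GGTCANNNTGACC, and the full element shared by the glucocorticoid and progesterone receptors, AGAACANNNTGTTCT, were in none of these 6 windows, and they were in 0.0269% and 0.0149% of all windows. These letters say nothing about more distant sites.

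Pgr, the receptor through which progesterone acts on the uterus, was lower in ELT3-245. Its probe set (TC0800000065.rn.2, chromosome 8) read 9.98, 10.05 and 10.13 on the log2 scale in ELT3-245 in rapamycin, against 11.50, 11.31 and 11.35 in ELT3 in rapamycin. In DMSO it read 9.64, 9.18 and 9.75 in ELT3-245, against 10.83, 10.75 and 11.03 in ELT3. Every ELT3-245 array lay below every ELT3 array, also across the treatments.

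The line difference in Pgr was nearly the same size in both treatments. Its mean was 10.06 ± 0.07 in ELT3-245 and 11.39 ± 0.10 in ELT3 in rapamycin (SD, n = 3 each), a log2 difference of -1.34 (SE 0.147, limma adjusted p = 2.22e-05), or 2.52-fold lower in ELT3-245. In DMSO the means were 9.52 ± 0.30 in ELT3-245 and 10.87 ± 0.14 in ELT3 (SD, n = 3 each), a log2 difference of -1.35 (SE 0.147, limma adjusted p = 2.18e-05), or 2.54-fold lower. The exact two-sided permutation test gave p = 0.1 in each treatment, the smallest that 3 arrays against 3 allow. The call in DMSO was lost with a per-gene unequal-variance test after Benjamini-Hochberg adjustment (adjusted p = 0.0629).

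Rapamycin went with more Pgr signal in both lines, by less than the 1.5-fold that a call needed. The log2 difference between rapamycin and DMSO was 0.53 in ELT3-245 (95% interval 0.21 to 0.85, limma adjusted p = 0.0248), or 1.44-fold. In ELT3 it was 0.52 (95% interval 0.20 to 0.84, limma adjusted p = 0.0208), or 1.43-fold. In each line the rapamycin arrays lay above the DMSO arrays without overlap. The adjusted p passed 0.05 and the size fell short, so Pgr was called in neither line. Both the size and the adjusted p depended on single arrays. Pgr was called in ELT3-245 without replicate 1 of ELT3-245 in DMSO (log2 difference 0.59, adjusted p = 0.039) or without replicate 3 of that group (0.64, adjusted p = 0.0165). In ELT3 it was called without replicate 3 of ELT3 in DMSO (0.60, adjusted p = 0.0218). Over all omissions of 1 array, the difference ran from 0.36 to 0.64 in ELT3-245, with limma adjusted p from 0.0165 to 0.0861. In ELT3 it ran from 0.46 to 0.60, with limma adjusted p from 0.00603 to 0.0787. The difference between the responses of the lines was 0.01 (95% interval -0.44 to 0.46, limma adjusted p = 0.985).

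The 4 groups thus had a full order in Pgr: ELT3 in rapamycin, ELT3 in DMSO, ELT3-245 in rapamycin and ELT3-245 in DMSO, high to low. No neighbors in this order overlapped. ELT3-245 in rapamycin, at 9.98 to 10.13, stayed below ELT3 in DMSO, at 10.75 to 11.03.

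Nr3c1, the receptor for glucocorticoids, moved the other way and was higher in ELT3-245. Its probe set (TC1800001317.rn.2, chromosome 18) read 11.55, 11.68 and 11.72 on the log2 scale in ELT3-245 in rapamycin, against 11.05, 10.89 and 10.73 in ELT3 in rapamycin. In DMSO it read 11.34, 11.15 and 10.93 in ELT3-245, against 10.57, 10.34 and 10.66 in ELT3. The lines did not overlap in either treatment.

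The line difference in Nr3c1 was smaller than that in Pgr. The means in rapamycin were 11.65 ± 0.09 in ELT3-245 and 10.89 ± 0.16 in ELT3 (SD, n = 3 each), a log2 difference of 0.76 (SE 0.137, limma adjusted p = 0.00124), or 1.69-fold higher in ELT3-245. In DMSO the means were 11.14 ± 0.21 in ELT3-245 and 10.52 ± 0.17 in ELT3 (SD, n = 3 each), a log2 difference of 0.62 (SE 0.137, limma adjusted p = 0.00607), or 1.53-fold higher. The DMSO value stood just above the 1.5-fold threshold, and its call was lost without replicate 1 of ELT3-245 in DMSO (0.52, adjusted p = 0.0312), without replicate 2 of ELT3 in DMSO (0.52, adjusted p = 0.0314) and with median centring of the arrays (0.58, adjusted p = 0.0124). Both Nr3c1 calls were lost with the unequal-variance test after adjustment (adjusted p = 0.0524 in rapamycin and 0.107 in DMSO).

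Rapamycin also went with more Nr3c1 signal. The log2 difference between rapamycin and DMSO was 0.51 in ELT3-245 (95% interval 0.21 to 0.81, limma adjusted p = 0.0219), under the fold threshold. It was 0.37 in ELT3 (95% interval 0.07 to 0.67, limma adjusted p = 0.0728). The arrays of the treatments did not overlap in either line, and the exact permutation p was 0.1 in each. Without replicate 1 of ELT3-245 in DMSO, the response of ELT3-245 was called (0.61, adjusted p = 0.0176). Over all omissions of 1 array, this response ran from 0.40 to 0.61, with limma adjusted p from 0.0176 to 0.0911. The responses of the lines differed by 0.14 (95% interval -0.28 to 0.57, limma adjusted p = 0.746). From high to low, the order was ELT3-245 in rapamycin, ELT3-245 in DMSO, ELT3 in rapamycin and ELT3 in DMSO, and the middle groups overlapped, at 10.93 to 11.34 and at 10.73 to 11.05.

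**Figure D1:**
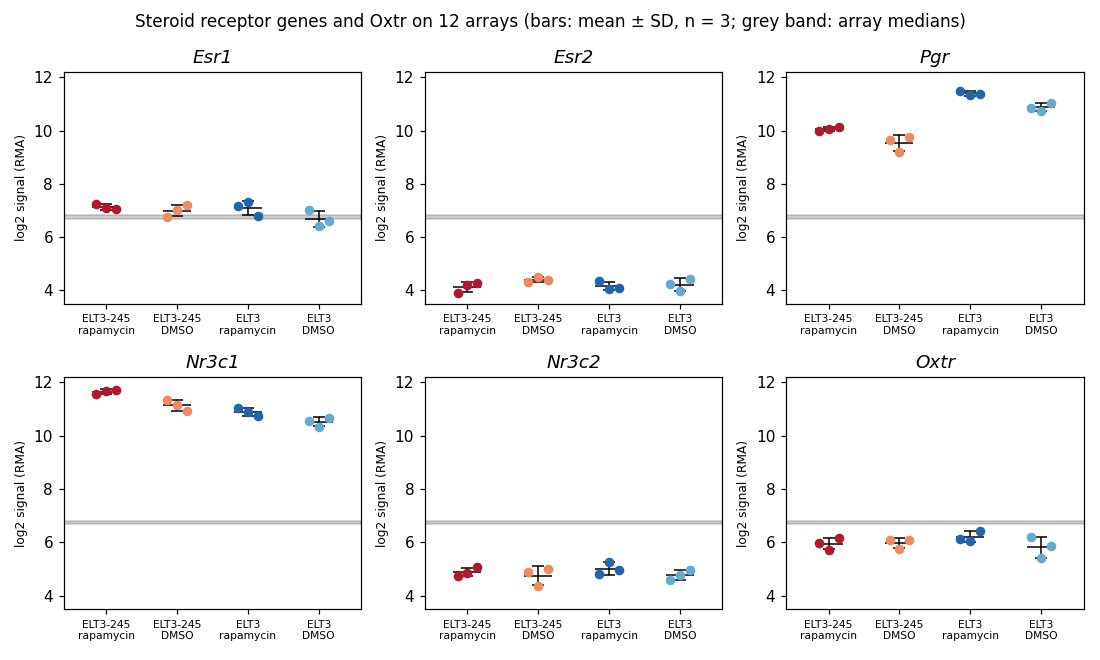
Log2 signals (RMA, vertical axis) of the 6 measured genes on the 12 arrays in the 4 groups. Points are arrays, bars the mean and SD of 3 arrays, and the grey band spans the array medians. Pgr lies lower in ELT3-245 than in ELT3, Nr3c1 lies higher, and the other 4 genes show overlapping lines in both treatments.

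Esr1, the estrogen receptor that carries most of the hormone's action in the uterus, was near the array medians. It read 7.24, 7.09 and 7.07 on the log2 scale in ELT3-245 in rapamycin, against 7.18, 7.32 and 6.797 in ELT3 in rapamycin. In DMSO it read 6.77, 7.01 and 7.21 in ELT3-245, against 7.003, 6.403 and 6.61 in ELT3. The lines overlapped in both treatments. The line difference was 0.03 in rapamycin (95% interval -0.36 to 0.43, limma adjusted p = 0.926) and 0.33 in DMSO (95% interval -0.06 to 0.72, limma adjusted p = 0.241). Rapamycin minus DMSO was 0.13 in ELT3-245 (95% interval -0.26 to 0.53) and 0.43 in ELT3 (95% interval 0.03 to 0.82), with limma adjusted p of 0.707 and 0.11. The intervals of the DMSO line difference and of the ELT3 response both hold values past 1.5-fold. The ELT3 response was called without replicate 1 of ELT3 in DMSO (0.59, adjusted p = 0.0358).

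Esr2, the other nuclear estrogen receptor, gave a dim signal, at percentile 10.2 of the mean signals of all probe sets. It ranged from 3.92 to 4.28 in ELT3-245 in rapamycin, from 4.30 to 4.50 in ELT3-245 in DMSO, from 4.05 to 4.35 in ELT3 in rapamycin and from 3.98 to 4.44 in ELT3 in DMSO. Only in ELT3-245 did rapamycin and DMSO arrays not overlap, with a log2 difference of -0.27 (95% interval -0.58 to 0.05, limma adjusted p = 0.266), and the difference between the responses was -0.21 (95% interval -0.66 to 0.24, limma adjusted p = 0.633). The line difference was -0.03 in rapamycin (95% interval -0.35 to 0.28) and 0.18 in DMSO (95% interval -0.14 to 0.49). At such a signal the arrays give little room to see a lower level.

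Nr3c2, which binds aldosterone and also glucocorticoids, was dim as well, at percentile 22.5. It ranged from 4.74 to 5.06 in ELT3-245 in rapamycin, from 4.36 to 5.02 in ELT3-245 in DMSO, from 4.81 to 5.27 in ELT3 in rapamycin and from 4.59 to 4.97 in ELT3 in DMSO. All 4 groups overlapped. The line difference was -0.13 in rapamycin (95% interval -0.54 to 0.27, limma adjusted p = 0.68) and -0.02 in DMSO (95% interval -0.43 to 0.38, limma adjusted p = 0.952). Rapamycin minus DMSO was 0.13 in ELT3-245 (95% interval -0.27 to 0.54) and 0.24 in ELT3 (95% interval -0.16 to 0.65).

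Oxtr, the receptor for the hormone that drives labor contractions, lay at percentile 42.3. It read 5.97, 5.73 and 6.16 on the log2 scale in ELT3-245 in rapamycin, against 6.14, 6.06 and 6.44 in ELT3 in rapamycin. In DMSO it read 6.09, 5.75 and 6.09 in ELT3-245, against 6.19, 5.40 and 5.88 in ELT3. All of these groups overlapped. The line difference was -0.26 in rapamycin (95% interval -0.69 to 0.17, limma adjusted p = 0.407) and 0.15 in DMSO (95% interval -0.28 to 0.58, limma adjusted p = 0.657). Rapamycin minus DMSO was -0.03 in ELT3-245 (95% interval -0.46 to 0.40) and 0.39 in ELT3 (95% interval -0.04 to 0.82), and the responses differed by -0.41 (95% interval -1.02 to 0.20, limma adjusted p = 0.468).

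In counts, 2 of the 6 measured genes were called in each line comparison, Nr3c1 as higher and Pgr as lower. The share of all probe sets called was 16.8% in rapamycin and 14.9% in DMSO. With so few genes, 2 of 6 is a description and sets them apart from nothing. For the rapamycin response, 0 of 6 were called in ELT3-245, where 10.6% of all probe sets were called, and 0 of 6 in ELT3, where 15.9% were. At an unadjusted p under 0.05 in limma, Pgr and Nr3c1 passed in ELT3-245, and Pgr, Nr3c1 and Esr1 passed in ELT3. The share of all probe sets at that unadjusted threshold was not taken, so these counts are only a description. Without a fold threshold the adjusted test called 2 of 6 in ELT3-245 and 1 of 6 in ELT3. By the same rule, 4176 of all 23188 probe sets were called in ELT3-245 and 5865 in ELT3. None of the 6 had a called difference between the responses, for which 4.23% of all probe sets were called. Non-overlapping lines were seen for 2 of 6 genes in each treatment, against 37.7% of all probe sets in rapamycin and 36.8% in DMSO. Non-overlapping treatments were seen for 3 of 6 in ELT3-245, against 34.9%, and for 2 of 6 in ELT3, against 37.7%. The comparisons of lines and of treatments share arrays, while the line comparisons share none with each other.

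**Figure D2:**
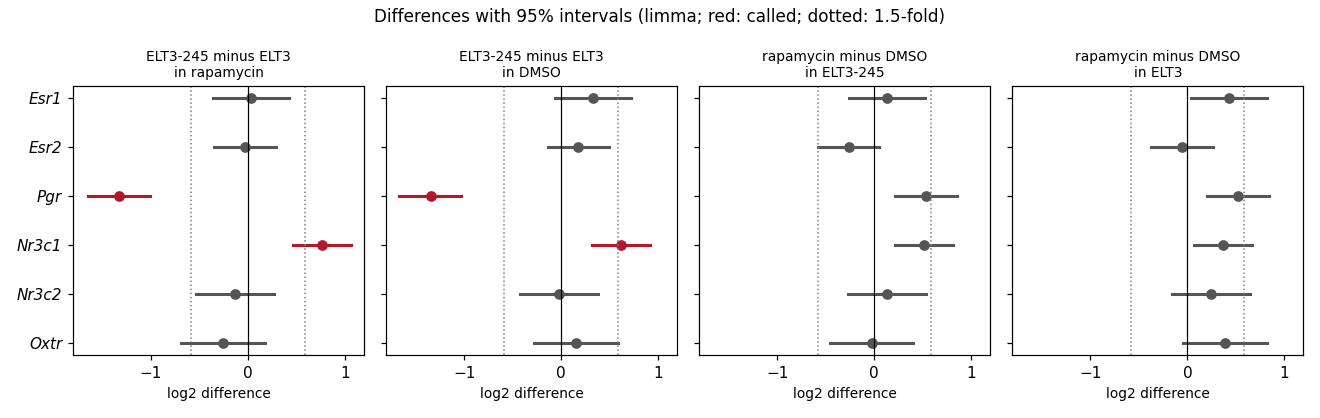
Log2 differences (horizontal axis) of the 6 genes in 4 comparisons, with 95% intervals from limma; red marks a call and the dotted lines 1.5-fold. Pgr at -1.34 and -1.35 and Nr3c1 at 0.76 and 0.62 are the called line differences, and no rapamycin response was called.

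The genes whose profile over the 12 arrays was most like that of Pgr were Tgfb2, which encodes a ligand of the TGF-β family (r = 0.993), Bst1 (r = 0.988) and Veph1 (r = 0.983). For Nr3c1 they were Golm2 (r = 0.978), Creb3l2 (r = 0.971) and Tmem260 (r = 0.966). For the genes without a call, the highest correlations were lower, as 0.922 for Pex11a with Esr1, 0.941 for Cyp2t1 with Oxtr, 0.914 for Magix with Nr3c2 and 0.856 for Vps11 with Esr2. The 12 arrays fall into 4 groups, so these values describe shared differences between groups.

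Among other receptors for steroids, Paqr8, a membrane progestin receptor, was lower in ELT3-245 like Pgr. It read 8.61, 8.54 and 8.57 on the log2 scale in ELT3-245 in rapamycin, against 10.57, 10.77 and 10.36 in ELT3 in rapamycin, and 8.61, 8.74 and 8.23 in ELT3-245 in DMSO, against 10.48, 10.41 and 10.43 in ELT3 in DMSO. The lines were far apart in both treatments, with log2 differences of -1.99 (limma adjusted p = 4.31e-07) in rapamycin and -1.91 (limma adjusted p = 6.88e-07) in DMSO. It was the only call among 8 measured receptors of this list in either treatment, and none of the 8 was called for a rapamycin response. Over all probe sets, 16.8% were called between the lines in rapamycin and 14.9% in DMSO. For the rapamycin response, 10.6% were called in ELT3-245 and 15.9% in ELT3. Pgrmc1 and Pgrmc2, membrane proteins that were named for progesterone binding, had line differences of -0.13 and -0.10 in rapamycin and of -0.36 and -0.23 in DMSO. Gper1, a membrane estrogen receptor, had differences of 0.24 in rapamycin and -0.01 in DMSO.

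Chaperones that keep steroid receptors ready for hormone were among the genes lower in rapamycin. Fkbp4, the Hsp90 cochaperone known to be needed for progesterone receptor action in the mouse uterus, read 11.44, 11.43 and 11.07 on the log2 scale in ELT3-245 in rapamycin, against 12.25, 12.67 and 12.28 in ELT3-245 in DMSO. In ELT3 it read 10.98, 10.73 and 10.36 in rapamycin, against 12.23, 12.48 and 12.56 in DMSO. It fell by 1.08 in ELT3-245 (limma adjusted p = 0.00136) and fell by 1.73 in ELT3 (limma adjusted p = 2.82e-05), and the responses differed by 0.65 (limma adjusted p = 0.193). Stip1, which links Hsp70 to Hsp90, fell by 0.63 in ELT3-245 and by 0.99 in ELT3. Ptges3, the p23 cochaperone, fell by 0.61 in ELT3 and had a difference of -0.30 in ELT3-245 that was not called, and Phb2, a repressor of estrogen receptor activity, fell by 0.77 in ELT3. The Hsp90 genes themselves, Hsp90aa1 and Hsp90ab1, had differences of -0.25 and -0.24 in ELT3-245 and of -0.47 and -0.36 in ELT3, below the fold threshold.

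Of the 15 measured chaperones and coregulators, 1 was called higher and 2 lower in ELT3-245 in rapamycin, and 1 higher and 4 lower in ELT3. The shares of all probe sets called higher and lower were 5.65% and 4.98% in ELT3-245 and 7.47% and 8.45% in ELT3. Most of the 15 are bright. Among the 8196 named probe sets with a mean at or above the median, these shares were 10.1% and 9.76% in ELT3-245. In ELT3 they were 12.4% and 17%. The list median was -0.18 in ELT3-245 and 0.06 in ELT3, against medians of -0.02 and 0.02 over all probe sets. The gene called higher was the RNA helicase and coactivator Ddx17 in ELT3-245 (0.72) and the coactivator Ncoa2 in ELT3 (0.97). Between the lines in DMSO, the corepressor Nrip1 was 0.83 higher in ELT3-245 (limma adjusted p = 7.69e-05) and was the only call of the 15. In rapamycin, 3 of the 15 were called higher in ELT3-245, Fkbp4 (0.62), Ddx17 (0.62) and Phb2 (0.59), and none lower. Among all probe sets, 8.86% were called higher and 7.92% lower between the lines in rapamycin, and 7.3% and 7.56% in DMSO. The share called higher was 15.4% in rapamycin and 11.7% in DMSO among the 8196 named probe sets with a mean at or above the median.

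**Figure D3:**
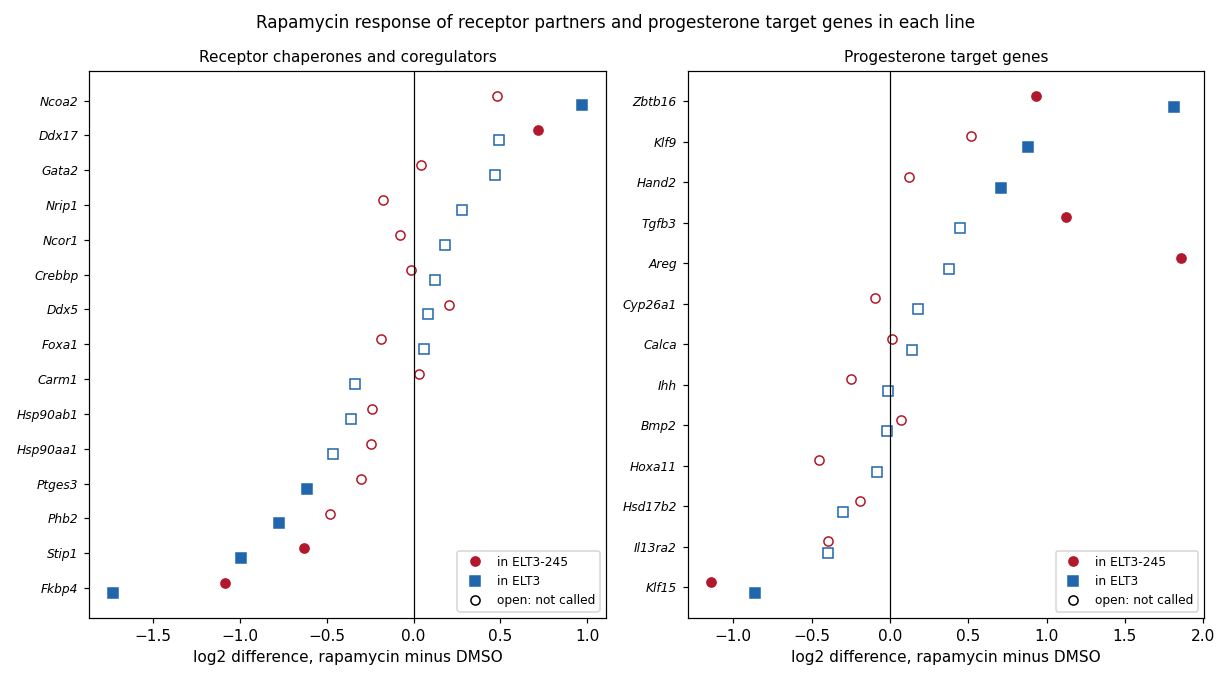
Log2 differences between rapamycin and DMSO (horizontal axis) in ELT3-245 (red circles) and in ELT3 (blue squares), for receptor chaperones and coregulators on the left and progesterone target genes on the right; open symbols were not called. In the left panel Fkbp4 and Stip1 lie furthest below 0 in both lines; in the right panel Klf15 lies furthest below 0 in both lines, and Zbtb16 in ELT3 and Areg in ELT3-245 lie furthest above it.

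Genes known to be induced by glucocorticoids were called higher more often than lower in ELT3-245, the line with the higher Nr3c1 signal. Of 21 measured target genes, 8 were called higher and 1 lower in rapamycin, where 8.86% of all probe sets were called higher and 7.92% lower. In DMSO 11 were called higher and 0 lower, where 7.3% of all probe sets were called higher and 7.56% lower. Of the 8196 named probe sets with a mean at or above the median, which are more like these genes in brightness, 15.4% were called higher in rapamycin and 11.7% in DMSO. The list median was 0.41 in rapamycin and 0.60 in DMSO, against -0.02 and 0.01 over all probe sets. The counts of genes called higher stayed at 7 to 9 in rapamycin and at 10 to 11 in DMSO when single arrays were left out, and the unequal-variance test after adjustment gave 5 in rapamycin and 6 in DMSO. These genes also answer to signals other than glucocorticoids, and the part of the Nr3c1 level in their calls was not tested.

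Errfi1, which encodes a feedback inhibitor of the EGF receptor, had the largest difference of the list in both treatments. It read 14.53, 14.78 and 14.66 on the log2 scale in ELT3-245 in rapamycin, against 11.79, 12.04 and 11.65 in ELT3 in rapamycin, and 14.45, 14.57 and 14.73 in ELT3-245 in DMSO, against 11.67, 11.63 and 11.82 in ELT3 in DMSO. The lines were separated by 2.83 in rapamycin (limma adjusted p = 6.73e-09) and 2.87 in DMSO (limma adjusted p = 6e-09). Glul, glutamine synthetase, was 1.88 higher in rapamycin and 2.65 higher in DMSO. Pdk4, a kinase that shuts off pyruvate dehydrogenase, was 2.66 higher in rapamycin and 2.04 higher in DMSO, and Cebpd, a transcription factor, was 1.001 higher in rapamycin and 2.19 higher in DMSO. Klf9, a transcription factor that both glucocorticoids and progesterone are known to induce, was 1.33 higher in rapamycin and 1.69 higher in DMSO.

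The genes most often used to read glucocorticoid receptor activity moved less. Fkbp5, which lowers the hormone affinity of the receptor, was 0.79 higher in ELT3-245 in rapamycin (limma adjusted p = 0.000563) and had a difference of 0.42 in DMSO (limma adjusted p = 0.0343) that was under 1.5-fold. Tsc22d3, also called Gilz, had differences of 0.40 in rapamycin and 0.14 in DMSO, and the clock gene Per1 had 0.51 and 0.29, none of them called. Sgk1, a kinase, was 0.60 higher in DMSO and had a difference of 0.02 in rapamycin. Mt1, a metallothionein, was the gene called lower in rapamycin (-0.67), while it was 0.65 higher in DMSO. Tat and Lcn2, which are used in liver and in inflamed tissue, gave group means under 5.

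The glucocorticoid targets did not share 1 direction under rapamycin. In ELT3-245, 4 of 21 were called higher and 4 lower, and in ELT3, 6 higher and 2 lower. In all, 5.65% of probe sets were called higher and 4.98% lower in ELT3-245, and 7.47% higher and 8.45% lower in ELT3. Dusp1, a phosphatase that turns off MAP kinases, rose by 1.31 in ELT3-245 and by 1.24 in ELT3, and Sgk1 rose by 1.02 and by 1.59. Ddit4, an inhibitor of mTORC1, fell by 2.38 in ELT3-245 and by 1.09 in ELT3.

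The known progesterone targets with a call did not share 1 direction between the lines. Of 13 measured genes, 3 were called higher and 2 lower in ELT3-245 in each treatment, with list medians of 0.0007 in rapamycin and 0.18 in DMSO. Of all probe sets, 8.86% were higher and 7.92% lower by the same rule in rapamycin, and 7.3% and 7.56% in DMSO. The mean signals of 8 of the 13 genes lay below the median of all probe sets. The dimmest, as Bmp2 at percentile 0.634 and Ihh at percentile 7.13, leave little room to see a lower level, which also bears on the list medians. Tgfb3, a TGF-β ligand that is abundant in leiomyomas, read 10.35, 10.39 and 10.44 on the log2 scale in ELT3-245 in rapamycin, against 13.26, 13.15 and 13.15 in ELT3 in rapamycin, and 9.42, 9.20 and 9.18 in ELT3-245 in DMSO, against 12.74, 12.74 and 12.75 in ELT3 in DMSO. It was lower in ELT3-245 by 2.80 and 3.47 log2 units (limma adjusted p = 7.22e-10 in rapamycin and 1.48e-10 in DMSO). Hand2, a transcription factor that progesterone induces in mouse endometrial stroma, was the other gene called lower, at -1.44 and -0.85. The genes called higher in DMSO were Klf9, Klf15 and Zbtb16, which are all also on the glucocorticoid list, and in rapamycin they were Klf9, Klf15 and Areg.

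Areg, an EGF family ligand that progesterone induces in the mouse uterus, responded to rapamycin in ELT3-245. It read 7.08, 7.43 and 6.90 on the log2 scale in ELT3-245 in rapamycin, against 4.72, 5.73 and 5.38 in ELT3-245 in DMSO. In ELT3 it read 5.27, 5.59 and 5.01 in rapamycin, against 5.02, 5.04 and 4.67 in DMSO. The rise was 1.86 in ELT3-245 (limma adjusted p = 0.000232), the difference in ELT3 was 0.38 (limma adjusted p = 0.308), and the responses differed by 1.48 (limma adjusted p = 0.0325).

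Known estrogen targets split both ways between the lines, while Esr1 and Esr2 had no call. Of 19 measured genes, 6 were called higher and 6 lower in ELT3-245 in rapamycin, and 5 higher and 7 lower in DMSO, with list medians of -0.16 and -0.06, beside 16.8% of all probe sets called either way in rapamycin and 14.9% in DMSO. S100g, the calcium-binding protein calbindin-D9k, which estrogen strongly induces in rat uterus, read 6.90, 7.59 and 6.93 on the log2 scale in ELT3-245 in rapamycin, against 12.26, 12.31 and 12.16 in ELT3 in rapamycin, and 6.14, 6.15 and 5.52 in ELT3-245 in DMSO, against 10.51, 10.58 and 10.64 in ELT3 in DMSO. The difference was -5.10 in rapamycin (limma adjusted p = 1.7e-09) and -4.64 in DMSO (limma adjusted p = 4.19e-09). With rapamycin S100g rose by 1.21 in ELT3-245 and by 1.67 in ELT3. The part of estrogen signals in the calls of this list was not tested.

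Other estrogen targets lower in ELT3-245 in both treatments included Ramp3, a receptor partner protein (-3.48 in rapamycin and -2.77 in DMSO), Igfbp4, which binds insulin-like growth factors (-3.70 and -2.28), and the chemokine gene Cxcl12 (-0.73 and -1.72). Higher in ELT3-245 in both treatments were Stc2, a secreted glycoprotein (3.86 and 2.53), Igf1, a growth factor for leiomyoma cells (1.29 and 2.81), the heat shock protein gene Hspb8 (1.999 and 2.17), Myc (1.35 and 0.80) and Ccn5, a matricellular protein (0.75 and 0.86). Ccn5 rose with rapamycin in both lines, by 2.61 in ELT3-245 and by 2.72 in ELT3. Tff1, Ltf and Ret, which estrogen induces in breast or uterine epithelium, had group means under 6 and no call.

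**Figure D4:**
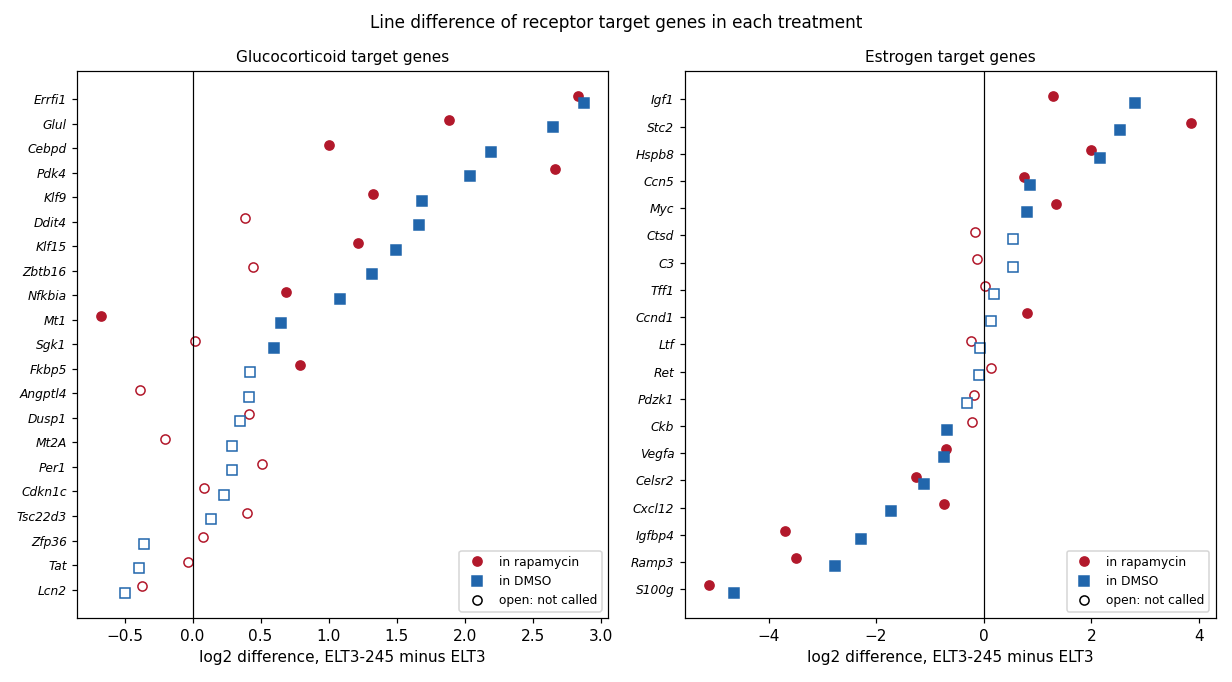
Log2 differences between ELT3-245 and ELT3 (horizontal axis) in rapamycin (red circles) and in DMSO (blue squares), for glucocorticoid targets on the left and estrogen targets on the right; open symbols were not called. In DMSO 11 of 21 glucocorticoid targets are called higher and 0 lower, while estrogen targets reach from -4.64 for S100g to 2.81 for Igf1. In rapamycin estrogen targets reach from -5.10 for S100g to 3.86 for Stc2.

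Among 15 measured enzymes that make or inactivate steroids, 2 were called higher and 2 lower in ELT3-245 in rapamycin, and 3 higher and 2 lower in DMSO. Both directions together, this was 4 and 5 of 15, beside 16.8% and 14.9% of all probe sets. Cyp1b1, which hydroxylates estradiol, read 10.25, 10.43 and 10.61 on the log2 scale in ELT3-245 in rapamycin, against 6.16, 5.68 and 6.31 in ELT3 in rapamycin, and 9.79, 9.80 and 9.66 in ELT3-245 in DMSO, against 5.67, 5.81 and 5.22 in ELT3 in DMSO. It was 4.38 higher in rapamycin (limma adjusted p = 3.29e-09) and 4.19 higher in DMSO (limma adjusted p = 4.97e-09). Hsd11b2, which inactivates corticosterone, was lower in ELT3-245 in DMSO (-1.43, limma adjusted p = 5.13e-05), and its difference in rapamycin was -0.52 (limma adjusted p = 0.0444), under 1.5-fold. Hsd11b1, which regenerates corticosterone, had group means between 13.82 and 14.06 and no call. Sts, which frees estrogens and other steroids from their sulfates, was 1.13 higher in rapamycin and 1.26 higher in DMSO, and it rose with rapamycin in both lines, by 1.31 in ELT3-245 and by 1.44 in ELT3. Cyp19a1, the aromatase that makes estrogens, had group means between 5.08 and 5.80 and no call.

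Oxtr belongs to the contraction-associated genes of the myometrium, and others of that set were called between the lines where it was not. Of 14 measured genes, Oxtr included, 4 were called higher and 1 lower in ELT3-245 in rapamycin, and 5 higher and 2 lower in DMSO. The shares of all probe sets with a call were 16.8% in rapamycin and 14.9% in DMSO. Ptgs2, the inducible prostaglandin synthase, was 4.28 lower in rapamycin and 4.20 lower in DMSO on the log2 scale (limma adjusted p = 4.99e-11 in rapamycin and 5.83e-11 in DMSO). Avpr1a, a vasopressin receptor of the same family as Oxtr, was 5.19 higher in rapamycin and 2.80 higher in DMSO. Gja1, the gap junction protein connexin 43, was 1.01 and 1.15 higher, and Ptger2, a receptor for prostaglandin E2, was 1.40 higher in rapamycin and 1.55 higher in DMSO.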

How the data were processed

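RNA of 12 samples in 4 groups was hybridised to rat Clariom S arrays. The deposited log2 signals were made by the authors with RMA, 1 value per probe set and array; RMA's version and the genome build are not given in these sources. RMA equalizes the arrays, so a shift of all transcripts would not be seen. No read depth applies, and 3 arrays per group limit the precision.

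Probe sets were named through the platform annotation: 15049 had 1 symbol, 8139 were unnamed and kept in all tests. Chromosomes come from probe set names and matched RefSeq for 99.4% of 14850. Where a symbol had several probe sets, that with the highest mean was used. limma 3.58.1 (R 4.3.3) fitted 4 group means, with 8 residual and 3.91 prior degrees of freedom, and intervals are limma's 95% intervals. The fit was tested on simulated data. Exact permutation tests were run per gene. An unequal-variance test per gene was an alternative; the study's methods name no test for the arrays. The genes described and the lists were chosen with earlier results of these data known. From each list, up to 4 called genes per comparison with the largest differences could be named; further ones, such as uncalled Hsp90 and Pgrmc genes, were chosen after their values were seen. Motifs were counted on both strands with Python 3.11.15 and pandas 2.3.3. Alternatives were other scalings, weights, filters, thresholds and tests, and leaving out each array.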

Additional observations from a re-analysis of the deposited data

Results flagged for a closer look

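None of the receptor genes, nor Oxtr, had a difference between the rapamycin responses of ELT3-245 and ELT3 that passed the test. The genes below, taken from the lists around them as up to 4 per list with the largest values, did in limma (adjusted p under 0.05 over all probe sets, at least 1.5-fold). Each value is the log2 response in ELT3-245 minus that in ELT3, and groups of 3 arrays were not searched for outlying samples.

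Among the estrogen targets it was -1.52 for Igf1, -1.41 for Igfbp4, 0.99 for Cxcl12 and 1.33 for Stc2. It was also called for Ctsd (-0.71) and Ccnd1 (0.67), which made 6 of 19, beside 4.23% of all probe sets. Igf1 fell by 1.04 with rapamycin in ELT3-245, while its difference in ELT3 was 0.48 and not called. Igfbp4 fell by 0.66 in ELT3-245 and rose by 0.75 in ELT3. Among the progesterone targets it was 1.48 for Areg and 0.68 for Tgfb3. Tgfb3 rose by 1.12 in ELT3-245, and its difference in ELT3 was 0.45, under the fold threshold.

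Among the glucocorticoid targets it was -1.32 for Mt1, -1.19 for Cebpd, -0.77 for Glul and -1.28 for Ddit4, all on the side of a lower response in ELT3-245. Among the steroid enzymes and contraction genes it was -0.82 for Hsd17b4 and 2.39 for Avpr1a. Avpr1a fell by 2.49 in ELT3, and its difference in ELT3-245 was -0.10.

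Among the markers it was -1.02 for Acta2, 0.81 for Tagln, -1.82 for Actg2, -1.74 for Synpo2, -1.79 for Krt8 and -1.36 for Cd68.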

How the results depend on the processing

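The line calls of Pgr and Nr3c1 kept their direction under all 14 other settings and with each of the 12 arrays left out; their calls did not all hold. In DMSO the number of receptor genes called was 1 with median centring, with a 2-fold threshold and with limma's treat against 1.5-fold, and 0 with the unequal-variance test after adjustment. In rapamycin it was 1 with the 2-fold threshold, treat and the unequal-variance test. Without a fold threshold it was 2 for the rapamycin response of ELT3-245 and 1 for that of ELT3. With single arrays left out, the counts were 2 between the lines in rapamycin, 1 to 2 in DMSO, 0 to 2 for the response of ELT3-245, 0 to 1 for that of ELT3 and 0 for the difference between the responses. Of the glucocorticoid targets, the unequal-variance test after adjustment called 5 higher in rapamycin and 6 in DMSO, and treat called 5 in rapamycin; these settings were applied to that list after its values were seen.

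Uncalled differences near 0 changed sign. Quantile normalization gave 0.037 for Esr2 between the lines in rapamycin and -0.045 for the Pgr difference between responses. Array weights gave -0.038 for Esr1 between the lines in rapamycin and -0.0074 for the Pgr difference between responses. With single arrays left out, the values ran from -0.12 to 0.14 for Esr1 and from -0.11 to 0.072 for Esr2 between the lines in rapamycin, and from -0.15 to 0.18 for Nr3c2 and from -0.056 to 0.34 for Oxtr between the lines in DMSO. They ran from -0.066 to 0.26 for Nr3c2 and from -0.14 to 0.087 for Oxtr in the response of ELT3-245, and from -0.18 to 0.054 for Esr2 in that of ELT3. For the difference between responses they ran from -0.16 to 0.12 for Pgr and from -0.31 to 0.022 for Nr3c2. The cause was not tested.

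Replicate numbers showed no steady pairing of the arrays. Same-numbered arrays of different groups correlated at -0.12 to 0.22 in their deviations from the group means, and other arrays at -0.208 to 0.135. Over 0.1 were 4 of 18 same-numbered pairs and 3 of 36 others, and 4 of 12 arrays correlated best with their own number. Replicate 3 of ELT3-245 in both treatments and of ELT3 in rapamycin correlated at 0.147 to 0.215 with each other, and at -0.124 to -0.077 with replicate 3 of ELT3 in DMSO. With the replicate number as a block, Pgr and Nr3c1 stayed called in both line comparisons (2 genes each), and 3434 of all probe sets were called in DMSO, against 3445 without it.

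Over all probe sets, the calls between the lines were 1781 in rapamycin and 1703 in DMSO at 2-fold, 1522 and 1471 with treat and 1771 and 1700 with the unequal-variance test after adjustment, against 3890 and 3445. For the rapamycin responses of ELT3-245 and ELT3, 2-fold gave 789 and 1198, treat 491 and 902, the unequal-variance test 809 and 1339, and no fold threshold 4176 and 5865, against 2465 and 3692. For the difference between responses, 2-fold gave 449 calls, treat 72 and single arrays left out 534 to 893, against 981. As each receptor gene and Oxtr had 1 probe set, the setting with the dimmer probe set could not be run. Dim probe sets bound what the arrays can show for Esr2 and Nr3c2.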
